A study of Drosophila melanogaster with 3 samples.

Results

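The receptor genes kirre, rst, sns and hbs were examined for binding of Runt, 4 genes of 13945 protein-coding genes on the major chromosome arms. They were chosen by name and by their measured peaks: a peak was counted for a gene when its summit lay in the annotated span or within 5 kb of it, and peaks were ranked by the authors' signal value within each list, so that rank 1 is the strongest. Counts and ranks of such peaks are therefore given as descriptions, with no test. Chromatin was precipitated with an antibody to GFP and sequenced (ChIP-seq), from whole embryos of Drosophila melanogaster collected at 0 to 16 hours of age from 1 transgenic line whose Runt protein carries GFP at its C-terminus. All 3 biological replicates belong to this 1 group, with no second genotype, treatment or age, and the peak lists of all replicates derive in part from 1 common further file, which also went into the control-normalized signal. Whole embryos mix muscle with all other tissues, so a peak cannot be assigned to a cell type. The lists of the replicates and of the pooled replicates hold 30000 peaks each. A separate list, thresholded by the authors on the irreproducible discovery rate (IDR, a measure of how well ranks repeat between replicates), is made of the strongest 10.2% of the pooled peaks. Each replicate's strongest peaks, as many as the IDR list holds, are called its top peaks below. The number of reads behind the peaks is unknown.

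Body muscles of the fly embryo form by fusion of founder cells with fusion-competent myoblasts. The immunoglobulin receptors Kirre (also called Dumbfounded) and Roughest, encoded by kirre and rst, act on founder cells and can stand in for each other, while Sticks and stones and Hibris, encoded by sns and hbs, act on fusion-competent myoblasts and bind them from the facing membrane. The same receptors are known from patterning of the compound eye and from the filtration slits of nephrocytes. Runt is a transcription factor of the RUNX family that acts in segmentation, sex determination and the nervous system.

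The sequences of 4 of the kirre IDR peaks are shown first, because none of the 9 held the RUNX recognition sequence at its summit, followed by the weaker sites of the same locus that did. The first 4 are the strongest site, 182 bases upstream of the Syx4 start inside a kirre intron (chrX:2744208-2744308), the strongest site nearest to a kirre start (chrX:3097154-3097254), the site whose rank varied most between replicates, in an intron of CG32795 and of kirre (chrX:2787432-2787532), and the weakest (chrX:3109079-3109179). All are from the dm6 (Release 6) plus strand, 101 bases centred on the summit, outside annotated exons, and read from the RefSeq assembly. Capitals would mark a match to TGCGGTC or TGCGGTT or TGTGGTC or TGTGGTT, the RUNX recognition sequence, on either strand.
kirre IDR rank 451: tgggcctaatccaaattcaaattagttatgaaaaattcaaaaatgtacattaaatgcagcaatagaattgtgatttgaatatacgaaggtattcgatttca
kirre IDR rank 954: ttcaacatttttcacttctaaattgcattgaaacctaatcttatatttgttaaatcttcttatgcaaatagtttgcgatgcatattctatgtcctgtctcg
kirre IDR rank 1449: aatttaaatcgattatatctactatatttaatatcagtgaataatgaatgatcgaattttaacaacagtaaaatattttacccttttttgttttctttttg
kirre IDR rank 2994: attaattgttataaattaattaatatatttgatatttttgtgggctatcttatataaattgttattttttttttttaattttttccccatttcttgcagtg

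The other sequences are 4 summits of the pooled list at kirre and rst that did hold the sequence, shown in capitals. The first lies in a Syx4 intron, 361 bases upstream of an internal Syx4 start (chrX:2743269-2743369). Another lies in a kirre intron 284 kb from the first kirre start (chrX:3024608-3024708). The rest are a pair 599 bases apart in an intron of rst (chrX:2963877-2963977 and chrX:2964476-2964576). In the last 3 sequences the match is on the minus strand, so that the plus strand shown reads its reverse complement.
pooled rank 3978, Syx4 intron: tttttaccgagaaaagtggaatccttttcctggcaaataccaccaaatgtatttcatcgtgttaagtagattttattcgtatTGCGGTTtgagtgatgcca
pooled rank 5424, kirre intron: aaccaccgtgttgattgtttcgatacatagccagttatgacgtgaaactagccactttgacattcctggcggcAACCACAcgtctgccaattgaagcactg
pooled rank 5503, rst intron: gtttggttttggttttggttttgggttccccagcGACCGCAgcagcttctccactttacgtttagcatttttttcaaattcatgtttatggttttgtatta
pooled rank 12497, rst intron: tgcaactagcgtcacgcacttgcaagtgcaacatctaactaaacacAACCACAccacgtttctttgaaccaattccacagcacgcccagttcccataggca

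The founder-cell receptor gene kirre carried most of the strong peaks of the family. It had 9 IDR summits, hbs had 1, and rst and sns had none. Of the 4 receptor genes, 2 therefore had an IDR summit, beside 33.8% of all protein-coding genes, a share that the choice of members does not allow to be read as a result. Only 8 of the 13945 protein-coding genes had more IDR summits than kirre, led by sbb with 18, and 3 others had the same number. Those 8 genes had spans of 1.68 to 125 kb, all shorter than kirre. In the pooled list kirre had 114 summits, the most of any gene, against 23 for rst, 16 for hbs and 6 for sns, while 81.6% of all genes had at least 1. Without the 5 kb flanks the counts were 113 for kirre, 14 for rst, 12 for hbs and 2 for sns. The replicate lists gave kirre 106, 110 and 111 summits, or 109 ± 2.65 (SD, n = 3). They gave rst 18, 18 and 17, hbs 13, 14 and 15, and sns 10, 11 and 10, in replicates 1, 2 and 3. Every replicate thus counted more summits for kirre than for the other 3, among lists in which 89.3%, 86.5% and 82.4% of all genes had a summit. All rst summits of each replicate were also counted for kirre, so kirre could not have fewer than rst. The kirre span is 394 kb, against 57.6 kb for sns and 30.7 kb for hbs.

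The length of kirre bears on these counts. Its annotated span is 394 kb on the plus strand of X (chrX:2740384-3134532), the fifth longest of the protein-coding genes, with 7 transcripts that begin at 6 positions up to 388 kb apart. Per 100 kb of span and flanks, kirre held 2.23 IDR summits, beside 2.17 over the whole of X and 2.29 over all arms. In the pooled list it held 28.2 per 100 kb, beside 19.0 over X and 22.4 over all arms, and in the replicates 26.2, 27.2 and 27.5, beside 18.4, 18.7 and 19.7 over X. The density of its strong peaks was thus that of the chromosome, and the density of all its peaks was above it in each replicate. By density rst came higher in the pooled list, at 68.8 per 100 kb, with hbs at 39.3 and sns at 8.88. In the IDR list hbs held 2.45 per 100 kb, from 1 summit, and rst and sns held none. Among the 8 other genes with spans of 200 to 800 kb, the nearest to kirre in IDR density was Ten-a, a teneurin gene on X, with 5 summits or 1.66 per 100 kb. The other 7, CG17684, DIP-lambda, Pzl, Snap25, bru3, l(3)80Fg and lovit, had no IDR summit, and of these only bru3 had pooled summits (20.2 per 100 kb). The 6 without pooled summits had at most 0.443 per 100 kb in any replicate. They were almost without called peaks and give little to compare kirre with. Over the 68 genes of 100 kb or more with a pooled summit, a wider set added after seeing the data, 20 were above kirre in pooled density and 18 in IDR density, and the others' medians were 20.2 and 0.869 per 100 kb.

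The kirre span is not kirre alone. It encloses 21 other protein-coding genes, among them rst, on the minus strand (chrX:2950399-2973834), and the eye colour gene w, and Syx4 overlaps its beginning. The Notch receptor gene N starts 338 bases beyond its end. All 23 pooled summits counted for rst were also counted for kirre, where they made up 20.2% of the 114, so 91 kirre summits lay outside rst and its 5 kb flanks. Of the 114, the nearest protein-coding start was one of kirre in 39 cases, CG4116 in 18, rst in 15, CG3603 in 9 and 11 further genes in the rest. The strongest summit within N had IDR rank 540 and was not counted for kirre. Only 2 of the 10 pooled summits counted for N were shared with kirre, the stronger at rank 3741, 343 bases upstream of the N start and in the last kirre exon. It ranked 5117, 7257 and 2197 in replicates 1, 2 and 3, so that replicate 3 placed it highest.

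**Figure D1:**
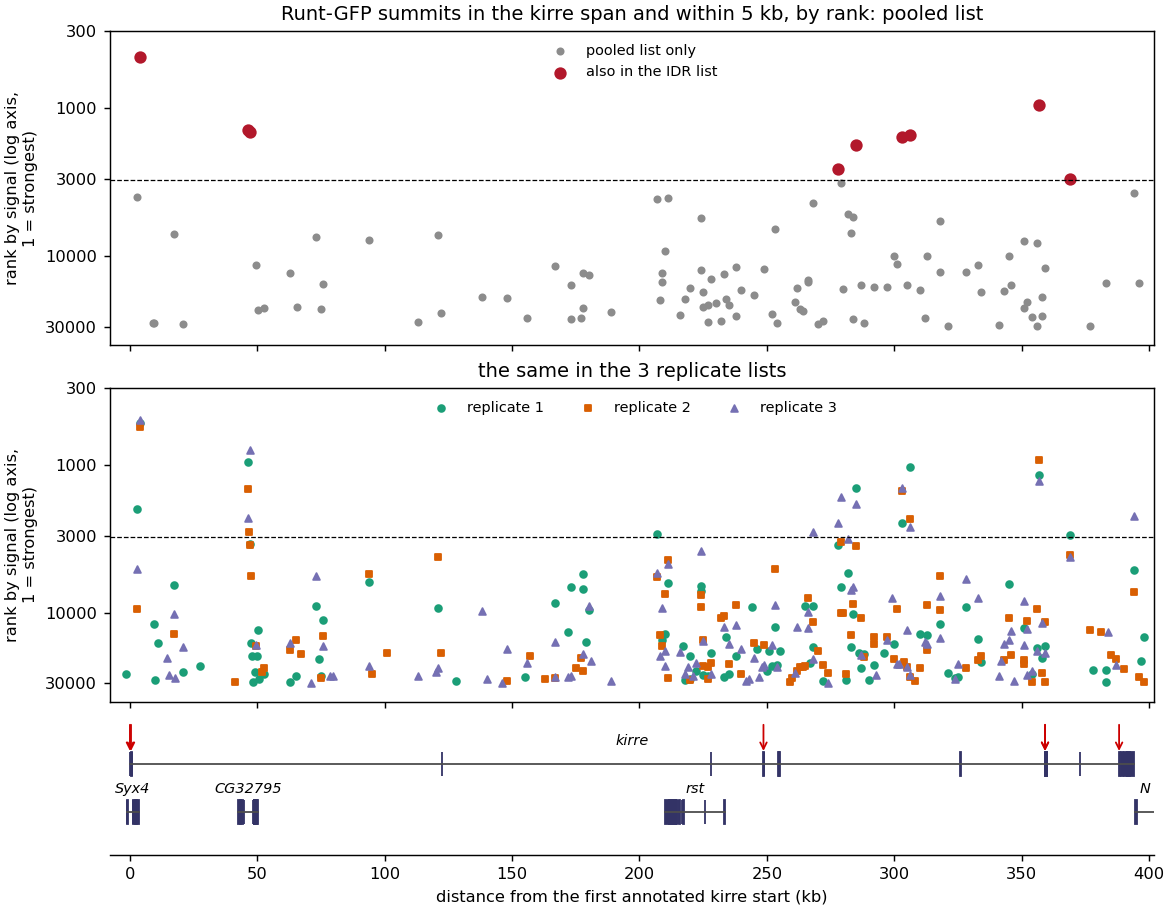
Runt-GFP summits along kirre. The upper panel shows the rank of each pooled summit against its distance from the first annotated kirre start in kb, with the 9 summits of the IDR list in red; the middle panel shows the same for each replicate; the lower panel shows exons (boxes) and annotated kirre starts (arrows), with CG32795, rst, Syx4 and N beneath. The dashed line is the length of the IDR list, and the rank axis is logarithmic. The red points fall within 47.1 kb of the first start and from 278 kb onward, with none in the 231 kb between.

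The strong kirre sites lay within 47.1 kb of the first start and from 278 kb onward, with a long stretch between them that held only weaker pooled peaks. The map of summits shows 3 sites within 47.1 kb of the first start, 4 between 278 and 306 kb, and 2 at 357 and 369 kb. No IDR summit lay in the 231 kb between 47.1 and 278 kb, although replicate 1 had a top peak there, at 207 kb and rank 2934. Summits as such were not lacking there. In bins of 50 kb the pooled list had 9, 8, 5, 9, 26, 25, 17 and 14 summits from the first bin to the shorter last one, and the IDR list had 3, 0, 0, 0, 0, 2, 2 and 2. The bin from 200 to 250 kb, which contains rst, was thus the fullest in the pooled list and empty in the IDR list. Replicates 1, 2 and 3 had 20, 21 and 24 summits in that bin and 25, 25 and 20 in the next, so that only replicate 3 shared the pooled order of the pair. From 100 to 150 kb they had 2, 4 and 7, the fewest of any bin, which in replicate 3 was shared with the bin from 50 to 100 kb.

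**Figure D2:**
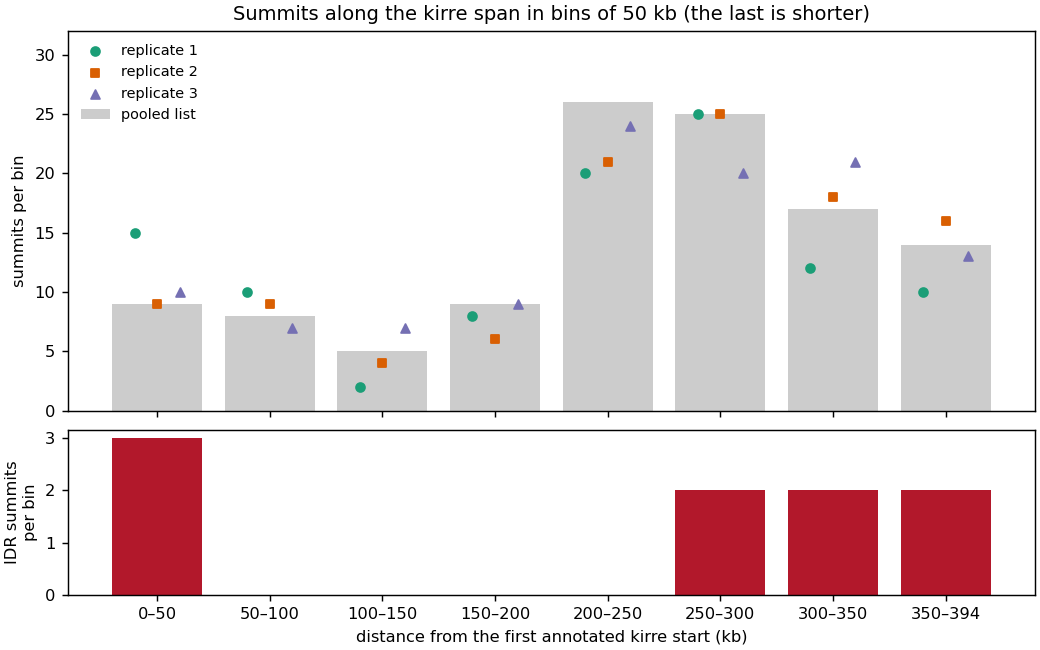
Number of summits along the kirre span in bins of 50 kb from the first start. Grey bars are the pooled list, points the 3 replicates and red bars the IDR list, each with an axis that starts at 0. The bins from 200 to 300 kb hold 26 and 25 pooled summits, but only the second of them holds any of the 9 IDR summits.

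The strongest kirre peak lay next to another gene. With its summit in a kirre intron 3.87 kb from the first start, it was 182 bases upstream of the start of Syx4, a syntaxin gene for membrane traffic on the opposite strand, and it ranked 451 in the IDR list. It was also the steadiest: replicates 1, 2 and 3 placed it at 515, 552 and 493. A second summit, at pooled rank 3978, lay inside Syx4, 361 bases upstream of another, internal Syx4 start. It ranked 1996, 9374 and 5041, so that only replicate 1 put it among its top peaks.

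A pair of sites lay in an intron of CG32795, a gene of the opposite strand enclosed by kirre and beside w. Their summits were 689 bases apart, 46.4 and 47.1 kb from the first kirre start, at IDR ranks 1389 and 1449. The first ranked 947, 1459 and 2274 in replicates 1, 2 and 3, and the second 3411, 2851 and 796. Replicates 1 and 2 thus put the first of the pair higher and replicate 3 the second, which had the widest spread of the 9, 4.29 times from its best to its worst rank. For the second site the replicate 2 rank is that of the strongest overlapping peak, whose summit was 157 bases away. A nearer replicate 2 summit ranked 3457, outside its top peaks. Both summits were within 5 kb of w, but no IDR summit lay in the span of w itself, where the best pooled rank was 22635 and replicate 3 had no summit.

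The remaining 6 IDR sites lay in introns of kirre with no other gene at the summit. The second strongest of all, at rank 954, was 2346 bases upstream of an internal kirre start 359 kb into the gene, and replicates 1, 2 and 3 ranked it 1160, 917 and 1289. The weakest, at rank 2994, was 9547 bases downstream of a kirre start in the same stretch and ranked 2989, 4047 and 4184, so that only replicate 1 kept it among its top peaks. Between 278 and 306 kb there were 4 sites. Those at rank 1504 and 1559 were 3092 bases apart; they ranked 1023, 2307 and 2610, and 2461, 1495 and 1427, inside the top peaks of every replicate. Those at rank 1762 and 2555 ranked 1437, 3531 and 1844, and 3476, 3322 and 2458, and each fell outside that limit in 1 or 2 replicates. The pooled summit next after the IDR limit, at rank 3193 and 279 kb, ranked 6735, 10004 and 1638, high in replicate 3 only.

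No kirre start had a strong summit at it. Within 500 bases of the first start, of the start 421 bases beyond it and of the last one, no list had a summit. At the start 249 kb into the gene the pooled list had a summit at rank 12218 and replicate 3 at 22716, while replicates 1 and 2 had none. At the adjoining pair of starts 359 kb in, the pooled rank was 12028 and the replicates' best ranks were 16716, 11506 and 18759. By class, 8 of the 9 IDR summits were intronic and 1, that at Syx4, was within 500 bases of a start. Over all IDR peaks 38.4% were intronic and 45.0% within 500 bases of a start. This difference was not tested. All 9 summits lay within the kirre span, so none could be intergenic, and 87.7% of the pooled kirre summits were intronic too. The nearest protein-coding start belonged to kirre for 4 of the 9, to CG32795 and CG4116 for 2 each and to Syx4 for 1, and the distances for the kirre and CG4116 sites ran from 2346 to 36671 bases.

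All 9 kirre IDR peaks were overlapped by a peak in each of the 3 replicates, as were 99.2% of all IDR peaks. By top peaks alone, 5 of the 9 were matched in all 3 replicates, beside 57.7% of all IDR peaks. Of its top peaks, replicate 1 had 9 at kirre, replicate 2 had 6 and replicate 3 had 11, or 8.67 ± 2.52 (SD, n = 3). The ratio of worst to best rank over the replicates was 1.12 to 4.29 for the 9 sites with a median of 1.72, and its median over all IDR peaks was 2.16. Of all 114 pooled kirre peaks, 51 were overlapped in all 3 replicates, 40 in 2, 21 in 1 and 2 in none. The 51 are a share of 44.7%, with a Clopper-Pearson exact interval of 35.4 to 54.3% (95%, for the error of counting alone), which takes in the 48.6% of the whole pooled list. This interval and that for hbs below treat peaks as independent. Since 1 replicate peak can match several pooled peaks, they may be too narrow.

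**Figure D3:**
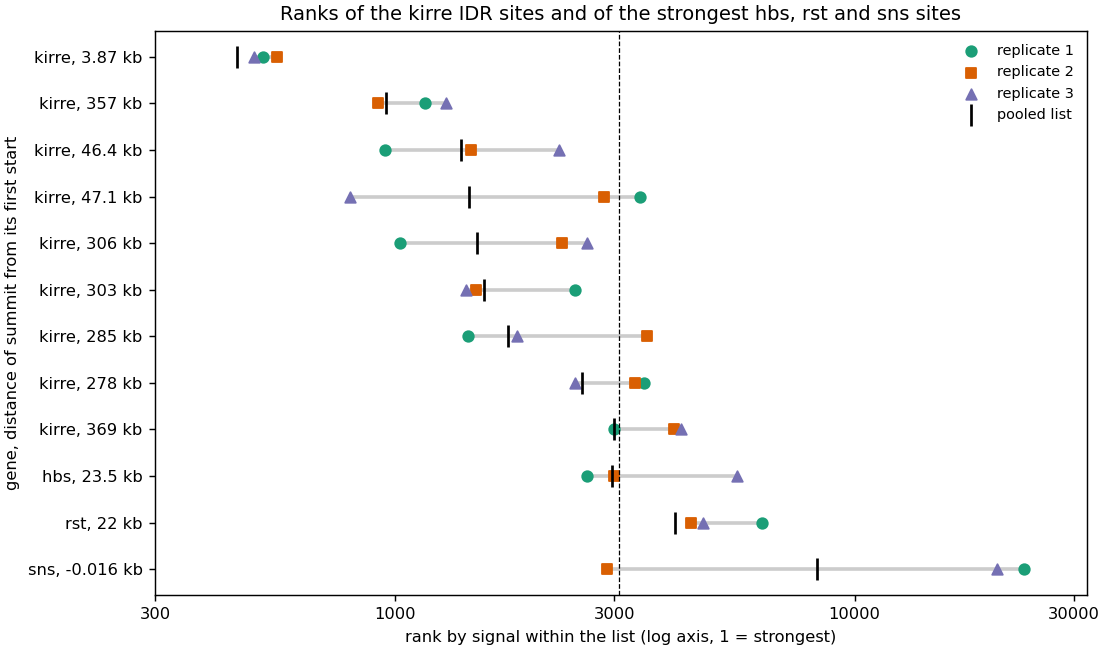
Rank of each of the 9 kirre IDR sites, and of the strongest pooled site of hbs, rst and sns, in each list. The rank axis is logarithmic, symbols are the strongest overlapping peak of each replicate, the black bar is the pooled list, the grey line joins the lowest and highest replicate, and the dashed line is the length of the IDR list. The top kirre site spans ranks 493 to 552 and the sns site 2884 to 23413.

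The other founder-cell receptor gene, rst, had only moderate peaks. Its strongest pooled summit, at rank 4057, lay in the last exon, in the 3′ untranslated region, 22.0 kb from the rst start. It ranked 6302, 4407 and 4688 in replicates 1, 2 and 3, outside the top peaks of each. The next, at rank 4137, lay beyond the 3′ end, 374 bases upstream of the start of CG3603, and ranked 2934, 5700 and 5394. Through that summit replicate 1 counted rst among the genes with one of its top peaks, while replicates 2 and 3 did not. The third, at rank 5503, was the intronic site with the RUNX sequence shown above, 9.91 kb downstream of the rst start. It ranked 7079, 7544 and 3835, highest in replicate 3. Its neighbour 599 bases away, also with the sequence, had pooled rank 12497, ranked 6573 and 9078 in replicates 1 and 2, and was overlapped by no peak of replicate 3. At the rst start itself the pooled summit ranked 13216 and the replicates' 27417, 10453 and 12418.

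In the fusion-competent myoblast receptor gene hbs (chr2R:15011396-15042134, plus strand), 1 intron held the strong sites. Its single IDR summit, at rank 2964, lay 23.5 kb from the start, near the end of the long first intron, and was among the weakest of the list. It ranked 2613, 2991 and 5539 in replicates 1, 2 and 3, so that replicate 3 left it outside its top peaks. The hbs span also encloses Obp51a, whose start, 10012 bases away, is the nearest of a protein-coding gene. The second hbs summit, at pooled rank 5931 and 18.9 kb, ranked 6304, 15514 and 3963. In replicate 3 that site was therefore above the first, and in replicates 1 and 2 it was below. Of the 16 pooled hbs summits 10 were intronic, all in this intron and at least 16.0 kb from the start, and 9 of the 16 (56.2%, 95% exact interval 29.9 to 80.2) were overlapped in all 3 replicates. The hbs start had weak summits, at rank 20520 in the pooled list and at best 13147, 19667 and 25975 in the replicates.

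The other fusion-competent myoblast receptor gene, sns (chr2R:8798489-8856091, plus strand), was the member on which replicates differed most. Its strongest pooled summit lay 16 bases upstream of the start, at rank 8273. It ranked 2884 in replicate 2 but 23413 in replicate 1 and 20450 in replicate 3, a ratio of 8.12 between the lowest and highest, and only replicate 2 counted it among its top peaks. Within the span itself there were only 2 pooled summits in 57.6 kb, both weak, the better at rank 18923. The other 3 of its 6 pooled summits lay beyond its 3′ end and were shared with RyR, the ryanodine receptor gene that starts 4273 bases downstream. The best of these, 938 bases upstream of the RyR start, had rank 10758 and was the top sns summit of replicates 1 and 3, at 17052 and 8315.

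**Figure D4:**
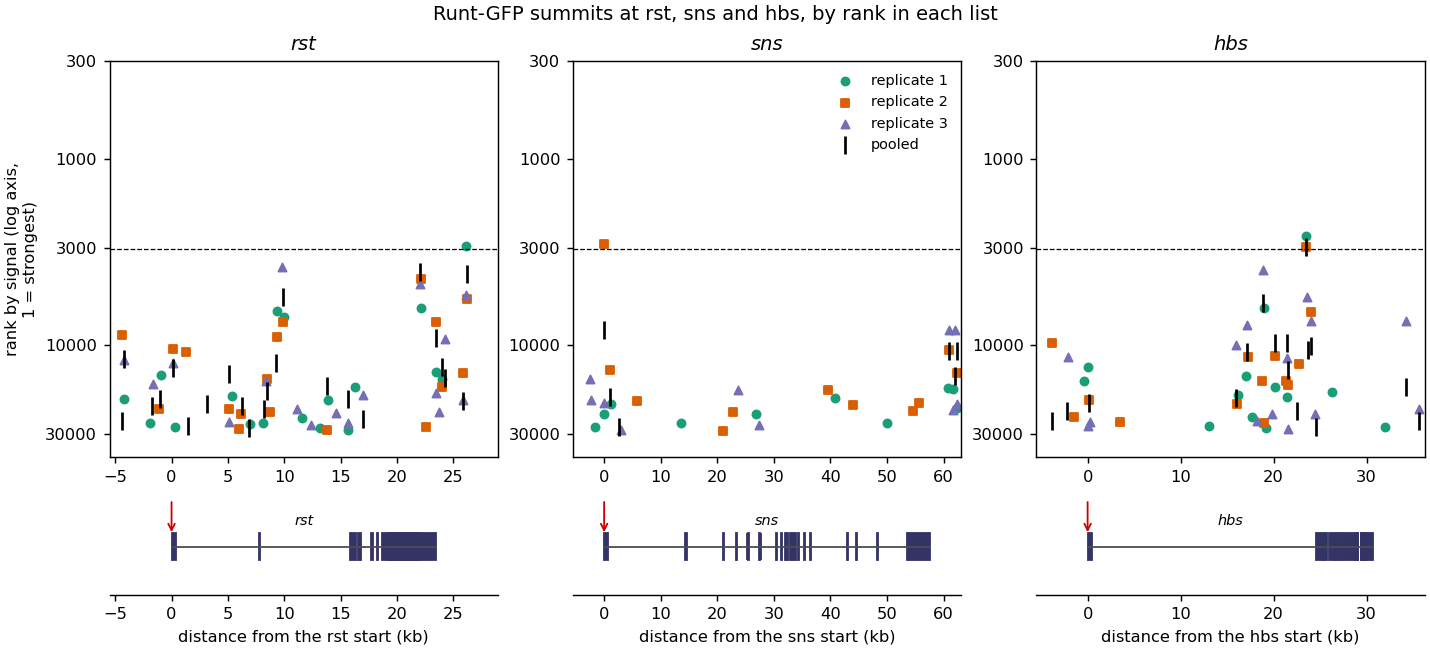
Summits at rst, sns and hbs and within 5 kb of them, by rank in each list (logarithmic axis) against the distance from the start of the gene in kb. Coloured symbols are the 3 replicates, black bars the pooled list, boxes exons and the arrow the annotated start. At sns the replicate 2 summit at the start (rank 2884) stands far above those of the other replicates, and at hbs the high summits are in the long intron.

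By their top peaks, the replicates counted different receptor genes. Replicate 1 counted kirre, rst and hbs, replicate 2 kirre, sns and hbs, and replicate 3 kirre alone, beside 35.3%, 33.9% and 34.5% of all genes. The best rank over all summits of a gene ran from 493 to 552 for kirre, from 2613 to 3963 for hbs, from 2934 to 4407 for rst and from 2884 to 17052 for sns. The kirre range did not overlap the other 3, and the ranges of hbs, rst and sns overlapped one another. In every replicate the best kirre rank was that of the site next to the Syx4 start. The best rank was also taken over at least 106 summits for kirre and at most 18 for each other member. Whether kirre would stand apart with equal numbers of summits was not tested, so these ranges are descriptions only. Of the pooled list, the last kirre summit inside the IDR list was at rank 2994 and the first outside it at 3193, and the single hbs summit inside was at 2964 with the next at 5931. At the limit of 5 kb, the farthest summit counted was 2350 bases from kirre, 4432 from rst, 4710 from sns and 4860 from hbs, and the nearest not counted were 8590, 6206, 5813 and 6512 bases away.

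No kirre IDR summit had the RUNX sequence within 50 bases, and 9 of the 114 pooled kirre summits did, near the share of all pooled summits. Searching both strands within 50 bases of the summit for these letters, 0 of the 9 kirre IDR summits had a match, which allows a share of up to 33.3%. All IDR summits had one at 9.36% and the 510 on X at 5.88%, so that no difference was detectable with 9 sites. The hbs IDR summit had none either. Over the whole width of the peak, the kirre site at rank 1762 had a match 188 bases from its summit, 1 of the 9, beside 20.5% of all IDR peaks. In the pooled list 9 of the 114 kirre summits had one (7.89%, 95% exact interval 3.67 to 14.5), beside 7.66% of all 30000 and 6.34% of the 4483 on X. At 500 bases to either side of the kirre summits 5 and 4 windows had one (4.39% and 3.51%). Of the 9 matches, 3 read TGCGGTT, 3 TGTGGTT, 2 TGCGGTC and 1 TGTGGTC. The strongest of these peaks were 3 of the 4 printed above, a further one at rank 11440 in CG32795, and the last of the 4. The match lay 13 bases from the summit at the stronger rst site and 1 base from it at the weaker one. For rst 3 of 23 summits had a match (13.0%, interval 2.78 to 33.6), for hbs 1 of 16 and for sns 0 of 6.

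Matches to the sequences of other embryonic factors, searched on both strands in the same window, are given beside their share in the whole lists. The E-box forms CATATG or CATGTG or CACATG or CACGTG, bound by mesodermal Twist among other factors, were found at 2 of the 9 IDR and 12 of the 114 pooled summits (10.5%), beside 8.22% and 9.25% over both lists. The site of the muscle regulator Mef2, searched in its standard form, was found at none of the 114, beside 0.407% of all pooled summits. The GATA form (AGATAA or AGATAG or TGATAA or TGATAG) was found at 2 of 9 and at 22 of 114 (19.3%), beside 23.1% and 18.7%. The summit windows were poor in G and C. Their median GC content was 26.7% over the 9 kirre IDR summits, from 17.8% to 41.6%, and 45.5% and 40.6% at 500 bases to the left and right. All IDR summits had a median of 32.7%. At 7 of the 9 the summit had less GC than both flanks, as at 58.1% of all IDR summits. Over the 114 pooled kirre summits the median was 37.6%, beside 41.6% over the whole pooled list.

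Further genes of the fusion pathway and its neighbourhood were compared by list, with lists that were compiled knowing earlier results of these data. Of 24 genes of the fusion machinery, 13 (54.2%) had an IDR summit in the span or within 5 kb, beside 33.8% of all genes. Their median span was 6.13 kb and that of all protein-coding genes 2.17 kb, so longer genes had more room for a summit, and no test was made. The strongest were counted for siz, the Arf exchange factor Loner (rank 381), Hem, a SCAR complex subunit also called Kette (647), the kinase gene Pak3 (706) and Arp2, of the actin-nucleating Arp2/3 complex (848). The summits for siz and Hem lay nearest to the starts of CG10584 and IleRS, and those of Pak3 and Arp2 in introns of these genes. The best rank of any summit counted for Hem was 1681 and 515 in replicates 1 and 2, and replicate 3 had none. The founder-cell adaptor gene rols, whose product binds the Kirre tail, had a summit 364 bases upstream of its start at rank 1392, and the best rank of any rols summit was 2203, 1329 and 1321 in replicates 1, 2 and 3. The Rac exchange factor gene mbc had 3 summits, the best at rank 882 in its own intron. The best rank of any mbc summit was 384, 807 and 1045 in replicates 1, 2 and 3, which need not be that site. The fusion-competent myoblast gene blow and the membrane protein gene sing had no IDR summit, with best pooled ranks of 4262 and 13851. These 4 genes, and lmd and twi, were named after their values were seen.

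Regulators of founder and fusion-competent myoblasts had an IDR summit in 7 of 14 cases, beside 33.8% of all genes, with a median span of 22.4 kb against 2.17 kb. They were led by Mef2 (rank 41), the Notch inhibitor gene numb (222), N (540) and the muscle identity gene nau (637). The numb summit was 247 bases upstream of its own start, and the best rank of any summit counted for numb was 192, 293 and 217 in replicates 1, 2 and 3. Those for Mef2 and nau lay nearest to the starts of Pal1 and CG10365, and that for N, in an intron, nearest to the protein-coding start of CG18508. No IDR summit was counted for lmd, which specifies fusion-competent myoblasts and has its best pooled rank at 11075, or for twi (4886). Of 6 genes for other contacts of the receptors, 4 (66.7%) had one, beside the same 33.8%, and their median span was 51.4 kb. These were cindr, a CD2AP-like adaptor (539), the endocytic receptor gene Cubn (670), the adhesion gene ed (962) and pyd, the ZO-1 homolog (1264). The Cubn summit was 86 bases upstream of the start of l(1)G0320. The strongest ed summit was intergenic and nearest to the start of Sr-CIII, 1256 bases away. The ed span and flanks held 6 summits and those of pyd 5. Of 28 other genes for immunoglobulin-domain adhesion or signalling receptors, 14 had an IDR summit, again beside 33.8% of all genes. They were led by the Netrin receptor gene fra (289), Nrg (566), DIP-alpha (639) and otk (702), and the most for any of them was 4, beside the 9 of kirre. The fra, Nrg and DIP-alpha summits lay nearest to the protein-coding starts of CG33752, IntS4 and ppk8, and the otk summit to its own. The median span of the 28 genes was 38.2 kb and that of the 4 fusion receptor genes 44.1 kb, both above the 2.17 kb of all genes.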

How the data were processed

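According to the deposited readme texts, the authors called peaks on each replicate's alignment with 1 further file common to all 3, which also entered their control-normalized signal and is not described there, called the pooled list on the 3 alignments together, and derived the IDR list from them. The labels name dm6 as the build. Not given in the sources used here: aligner, peak caller and cutoff of the IDR list. The deposited signal value of a peak has no stated scale, so it served for ranking inside one list. The deposited −log10 q-value could not rank the IDR peaks at kirre and hbs, which all had 3.82, the list's highest. Summits are the deposited offsets from the peak start, and coordinates count from 1. Genes are from Ensembl release 115 and bases from the RefSeq Release 6 assembly, whose arm ends no peak passes. Transposable elements were left out.

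The members and the gene lists were chosen with earlier results of these data known, and all 76 listed genes were matched. Genes were named by rule: the members, the nearest starts, the 4 strongest of each list and the genes of like span. Outside that rule, rols, mbc, blow, sing, lmd, twi and sbb were picked after their values were seen. An overlap of 1 base made peaks shared, and 1 replicate peak can match several pooled peaks. No test across genes was made. Alternatives comprised gene windows, shorter lists, overlap rules, motif forms and leaving out each replicate. The counting and motif code was checked on simulated data. Python 3.11.15, numpy 2.4.6 and pandas 2.3.3 were used.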

Additional observations from a re-analysis of the deposited data

How the results depend on the processing

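Windows of 0 or 10 kb in place of 5 kb left the number of receptor genes with an IDR summit at 2 and the kirre IDR count at 9, and gave 113 and 115 pooled kirre summits. The 1532 strongest IDR peaks gave 1 receptor gene and 5 kirre summits, since this list is shorter. Replicate 3 alone gave 1 receptor gene. Keeping IDR peaks matched by the strongest peaks of both other replicates gave 5 to 6 kirre summits. Matching in all 3 replicates gave 5 sites with top peaks only and 6 with overlap of at least 0.5 of both peaks. It gave 9 whichever replicate was left out, which follows from the match of all 9 in all 3 replicates. The strongest pooled peaks to a depth of 2 times the IDR list gave 19 kirre summits and overlap in all 3 replicates 51. The best rst rank was 2934 in replicate 1, against 4057 pooled, the best hbs rank 3963 in replicate 3, against 2964, and the best sns rank 17052 in replicate 1 and 18923 without flanks, against 8273; the cause was not tested. Depth is unknown. No RUNX match at kirre IDR summits appeared with windows of 25 or 100 bases, the shorter form TGCGGT or TGTGGT, nor with the replicates' own strongest peaks. No paired analysis was possible because there is only 1 group.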
